A study of Mus musculus with 3 samples.

Results

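The myeloid C-type lectin receptors are cell-surface proteins by which macrophages recognise sugars and lipids of microbes and of damaged cells. The 10 genes described here were taken by name from the receptors that myeloid cells are known to carry. The rule itself uses no measured value, but the list was chosen with earlier results of these data known. The genes are Clec4e, Clec4d, Clec4n, Clec7a, Clec5a, Clec10a, Clec12a, Clec4a1, Clec4a3 and Clec2d, which are 10 of the 55536 annotated genes measured. RNA came from the nuclear fraction of macrophages grown from bone marrow of C57BL/6J mice. The labels name the fraction both nucleus and nucleoplasm. Every culture had received lipid A, the membrane-anchored portion of lipopolysaccharide and a TLR4 ligand, at 100 ng/ml for 12 h. After 12 h without lipid A it was given again at 100 ng/ml for 15 min before the cells were collected. The 3 libraries form 1 group. No genetic change is listed in the labels, and the age and sex of the mice were not collected. Untreated cells are not part of the comparison, so the values are levels in stimulated cells and not responses to lipid A.

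All 3 libraries carry 1 donor identifier, and separate mice are not stated, so p-values measure only the spread between these samples, which may be technical. Replicate 2 was made from 500 ng of RNA and the other libraries from 1 µg each, so the input and the identity of replicate 2 cannot be told apart. The libraries held 19312032 to 23826101 expected counts over annotated genes. Expected counts are estimated numbers of fragments assigned to a gene, and TPM, a measure of transcript abundance, divides them by transcript length and scales each library to a fixed sum. All 8 macrophage markers examined were detected, meaning that each of the 3 libraries reached 1 TPM, and their summed level was 2327 to 3561 TPM. Of the other cell types, dendritic cells had 1 of 7 markers detected, at a summed level of 3.20 to 5.75 TPM. Batf3 was the highest of these, at a mean of 2.56 TPM, and Cd209a was at 0. Granulocyte markers summed to 1.52 to 3.49 TPM with 0 of 8 detected. S100a9 was the highest of them, at a mean of 0.807 TPM, and Ly6g and Elane were at 0. T, NK and B cells, mast cells and fibroblasts had 0 markers detected.

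C-type lectin receptors share a fold that in many members binds carbohydrate with the help of calcium. Activating members signal through an immunoreceptor tyrosine-based activation motif (ITAM), which lies in the receptor's own tail or in a partner chain such as FcRγ or DAP12 and recruits the kinase SYK. SYK then acts through the adaptor CARD9 to turn on inflammatory genes, while inhibitory members carry an ITIM motif that recruits phosphatases.

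All 10 receptors were detected in these nuclei by the RSEM-format TPM used throughout. By the kallisto-format TPM, a second quantification that the authors deposited, 6 of 10 were, since Clec4n, Clec7a, Clec5a and Clec10a had 0.952, 0.801, 0.599 and 0.545 TPM in replicate 3. Every receptor had a lower value by that unit in replicate 3, Clec2d for example 33.4 against 257 TPM. After scaling each library to the protein-coding genes encoded in the nucleus, the 4 had 32.7, 27.5, 20.5 and 18.7 TPM there. From the RSEM-format values, scaled alike, they had 25.5, 27.4, 21.3 and 16.6 TPM. By the RSEM-format TPM, 42.8% (9421 of 22015) of the protein-coding genes encoded in the nucleus were detected. No such share was computed for the kallisto-format TPM. The median over the receptors was 5.73 ± 0.12 (SD, n = 3) on the log2(TPM + 1) scale, against 3.25 ± 0.095 over the detected protein-coding genes. The receptors fell into a higher set of 6 and a lower set of 4 that did not overlap in any library. Both sets were defined from these same values, so their separation is a description and not a test. Clec2d, Clec4a1, Clec4e, Clec12a, Clec4a3 and Clec4d had at least 40.3 TPM in every library. Clec4n, Clec7a, Clec5a and Clec10a had at most 15.8 TPM in any. In bulk RNA, fewer cells that express a gene and less RNA per cell cannot be told apart.

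**Figure D1:**
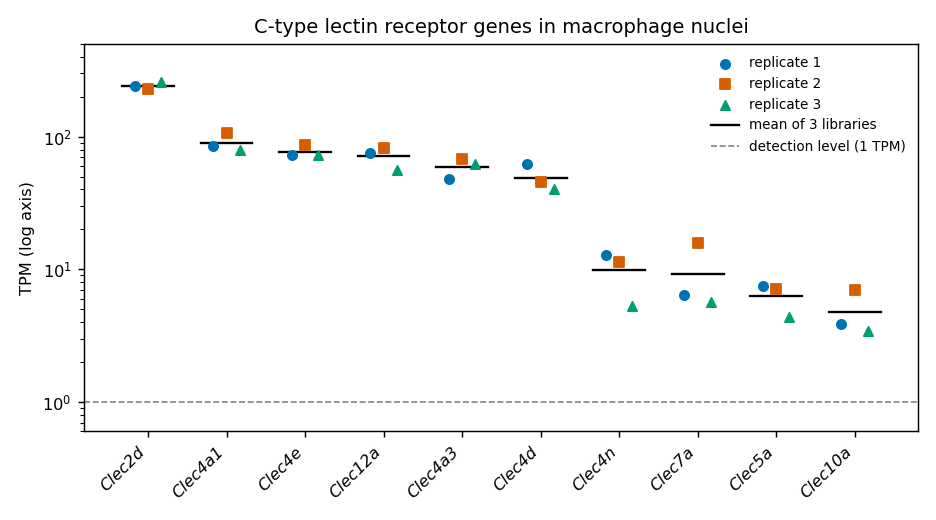
TPM of the 10 receptor genes (log axis) in each of the 3 libraries, with their mean as a bar and the detection level of 1 TPM as a dashed line. The 6 genes on the left stay at or above 40.3 TPM and the 4 on the right at or below 15.8 TPM in every library.

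Clec4e encodes Mincle, an FcRγ-coupled receptor for mycobacterial cord factor and for a protein released by dying cells. Its level was 72.5, 86.2 and 73.0 TPM in replicates 1, 2 and 3, or 77.2 ± 7.77 TPM (SD, n = 3). Replicate 2 was the highest, and the largest value was 1.19 times the smallest. The gene lies on the minus strand at chr6:123281789-123289870 (mm10), and 95.9% of detected protein-coding genes had a lower mean TPM. Clec4d encodes MCL, also called Dectin-3, which pairs with Mincle and FcRγ. Its level was 61.9, 45.3 and 40.3 TPM, or 49.2 ± 11.3 TPM, with replicate 1 the highest. Clec4d lies on the plus strand at chr6:123262111-123275265, tail to tail with Clec4e, with 6523 bp between the 2 genes. Summed over all isoforms, Clec4e exceeded Clec4d in all 3 libraries. Of their main coding isoforms, Clec4e-201 was the lower in replicate 1, at 36.4 TPM against 39.6 TPM for Clec4d-201, and the higher in replicates 2 and 3. That order is by RSEM-format TPM and may differ in the kallisto-format table. There Clec4e-201 took 29.9 ± 8.26% of its gene's TPM and Clec4d-201 43.2 ± 7.79%.

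Clec4n encodes Dectin-2, an FcRγ-coupled receptor for fungal mannans, and stood well below the other members of this FcRγ-coupled trio. Its level was 12.9, 11.3 and 5.26 TPM in replicates 1, 2 and 3 (9.82 ± 4.02), so that replicate 3 was the low library. The corresponding expected counts were 461, 271 and 165. Clec4n lies at chr6:123229843-123247021 on the plus strand, and 54.8% of detected protein-coding genes had a lower level. Clec4d exceeded Clec4n by 2.27 ± 0.41 on the log2(TPM + 1) scale, with the same direction in 3 of 3 libraries (exact two-sided sign-flip p = 0.25, the smallest that 3 libraries allow).

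Clec7a encodes Dectin-1, the receptor for fungal β-glucans, which has an ITAM-like motif in its own tail. It had 6.36, 15.8 and 5.65 TPM in replicates 1, 2 and 3, or 9.25 ± 5.64 TPM. Replicate 2 stood apart from the other libraries, which lay close together, and the highest value was 2.79 times the lowest, the widest ratio among the 10 receptors. Without replicate 2 its mean was 6.005 TPM, next to 5.97 TPM for Clec5a without that library. The gene lies at chr6:129461591-129472779 on the minus strand. Clec5a encodes MDL-1, a receptor that signals through the adaptors DAP12 and DAP10. It had 7.54, 7.11 and 4.40 TPM, or 6.35 ± 1.70 TPM, and replicate 3 was again the lowest. Clec5a lies at chr6:40574894-40585821 on the minus strand, far from the other receptor genes of that chromosome.

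Clec10a encodes MGL1, an endocytic receptor that binds galactose and N-acetylgalactosamine and marks alternatively activated macrophages. It was the lowest of the 10, with 3.85, 7.01 and 3.43 TPM (4.76 ± 1.96) and replicate 2 the highest. It is the only member outside chromosome 6, at chr11:70156197-70170834 on the plus strand. Of the 31-base stretches of its transcript Clec10a-202, 24.7% (362 of 1466) also occur in transcripts of its paralogue Mgl2. Reads from those stretches could be shared out between the 2 genes, so the Clec10a level is uncertain by an amount that was not tested. Mgl2 itself was at 0.213 ± 0.112 TPM. Its expected counts were 7, 2.01 and 4, and those of Clec10a 175, 241 and 149.

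Clec12a encodes MICL, an inhibitory ITIM-bearing receptor that recognises uric acid crystals of dead cells. It had 75.5, 81.9 and 55.7 TPM in replicates 1, 2 and 3, or 71.0 ± 13.7 TPM, and replicate 3 was the lowest. The gene lies at chr6:129342691-129365303 on the plus strand. Its level, summed over all isoforms, was close to that of the activating Clec4e, and the order of the pair changed between libraries. Clec4e exceeded Clec12a by 0.13 ± 0.23 on the log2 scale, in 2 of 3 libraries (exact sign-flip p = 0.50). Of the main coding isoforms, Clec12a-201 had 54.9, 51.1 and 37.4 TPM and Clec4e-201 had 36.4, 38.5 and 29.3 TPM.

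Clec4a1 and Clec4a3 belong to the dendritic cell immunoreceptor (DCIR) family. Clec4a1 had 84.5, 106 and 79.7 TPM (90.2 ± 14.2), with replicate 2 the highest, and lies at chr6:122921848-122934619 on the plus strand. Clec4a3 had 47.6, 67.6 and 62.3 TPM (59.2 ± 10.3), with replicate 1 the lowest, and lies at chr6:122952515-122969875 on the plus strand. Other DCIR genes of the same stretch were lower. Clec4a4, the gene that follows Clec4a3, was at 0.673 ± 0.240 TPM and Clec4a2 at 18.5 ± 5.93 TPM. Of the 31-base stretches of Clec4a3-201, 2.28% also occur in other genes, mostly Clec4a4.

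Clec2d encodes Clr-b, the surface ligand of the inhibitory natural killer receptor NKR-P1B, and had the highest level of the 10 receptors. It reached 242, 228 and 257 TPM in replicates 1, 2 and 3, or 243 ± 14.3 TPM. By RSEM-format TPM the libraries lay within a ratio of 1.13, the narrowest of the receptors. That rank depended on the scaling. After scaling to the protein-coding genes encoded in the nucleus, Clec2d had 1214, 1031 and 1246 TPM. On the same scale Clec4e had 364, 389 and 354 TPM, a narrower ratio. By mean RSEM-format TPM, 99.2% of detected protein-coding genes had a lower level than Clec2d. The Clec2d gene lies at chr6:129180615-129186534 on the plus strand. Klrb1b, which encodes the receptor for Clr-b, was at 0.0167 ± 0.0208 TPM, with 1, 0 and 2 expected counts. Clec2d exceeded Clec4a1, the next receptor in the order, by 1.43 ± 0.30 on the log2 scale in 3 of 3 libraries (exact sign-flip p = 0.25). Transcripts of other genes hold 11.8% of the 31-base stretches of Clec2d-201. Of those 140 stretches 68 are in Clec2i, which was itself at 2.74 ± 1.02 TPM.

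Only some neighbours in the order of levels kept their order in every library. From the top the order was Clec2d, Clec4a1, Clec4e, Clec12a, Clec4a3, Clec4d, Clec4n, Clec7a, Clec5a and Clec10a. It was sorted on the mean TPM of these same libraries, so the tests of neighbours are not independent of it. The same gene was the higher in 3 of 3 libraries for 4 of the 9 neighbouring pairs, namely Clec2d over Clec4a1, Clec4a1 over Clec4e, Clec4d over Clec4n and Clec5a over Clec10a. Without replicate 1 the count was 7 of 9, but leaving a library out can only keep or raise this count. With kallisto-format TPM it was 3 of 9, since Clec4a1 over Clec4e and Clec5a over Clec10a no longer held in every library (exact sign-flip p = 0.50 for each) and Clec4n over Clec7a did (p = 0.25). The mean differences of Clec4a1 over Clec4e (0.21 ± 0.09) and of Clec5a over Clec10a (0.37 ± 0.41) were small on the log2(TPM + 1) scale. For Clec4e and Clec12a, Clec12a and Clec4a3, Clec4a3 and Clec4d, Clec4n and Clec7a, and Clec7a and Clec5a, as for Clec5a and Clec10a, the SD of the difference was larger than its mean. Clec4n was above Clec7a in 1 library and below it in the other 2, and without replicate 1 the mean difference turned to -0.26. The exact two-sided sign-flip p was 0.25 at the least, and the Benjamini-Hochberg adjusted values over the 9 pairs were 0.5625 or 1.

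Each library was also set against the other 2. With 1 library on 1 side and the spread taken from 2, a receptor that misses the threshold is not shown to be alike in the libraries. The edgeR quasi-likelihood test, with p-values adjusted by Benjamini-Hochberg over 14350 genes at a threshold of 0.05, called 0 of 10 receptors for each library. It called 0.202% of all genes for replicate 1, 0% for replicate 2 and 0.00697% for replicate 3. At an unadjusted p under 0.05 it had 2, 2 and 1 of the 10 receptors, and 882, 877 and 536 of all genes. DESeq2 also called 0 of 10 for each library, and 72, 11 and 34 of all genes.

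The ratio of the highest to the lowest library was widest for the 4 low receptors, at 1.71 for Clec5a, 2.04 for Clec10a, 2.44 for Clec4n and 2.79 for Clec7a. Clec7a had a log2 fold change of 1.19 in replicate 2 against the other libraries, with an edgeR adjusted p of 0.773. DESeq2 gave it 1.18 ± 0.39 (SE) and an adjusted p of 0.441. When genes of low count were kept, 24311 genes were tested, 349 were called for replicate 2, and Clec7a became the 1 receptor called (edgeR adjusted p = 0.00153). Clec10a was also higher in replicate 2, by 0.75 on the log2 scale (edgeR adjusted p = 0.773). Clec4d had a log2 fold change of 0.70 in replicate 1 (edgeR adjusted p = 0.474), the smallest adjusted p of a receptor in that library. Clec4n had 0.83 in replicate 1 and -1.05 in replicate 3 (edgeR adjusted p = 0.733 and 0.9996). Over the 10 receptors the median SD of log2(TPM + 1) was 0.30, against 0.20 over detected protein-coding genes.

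**Figure D2:**
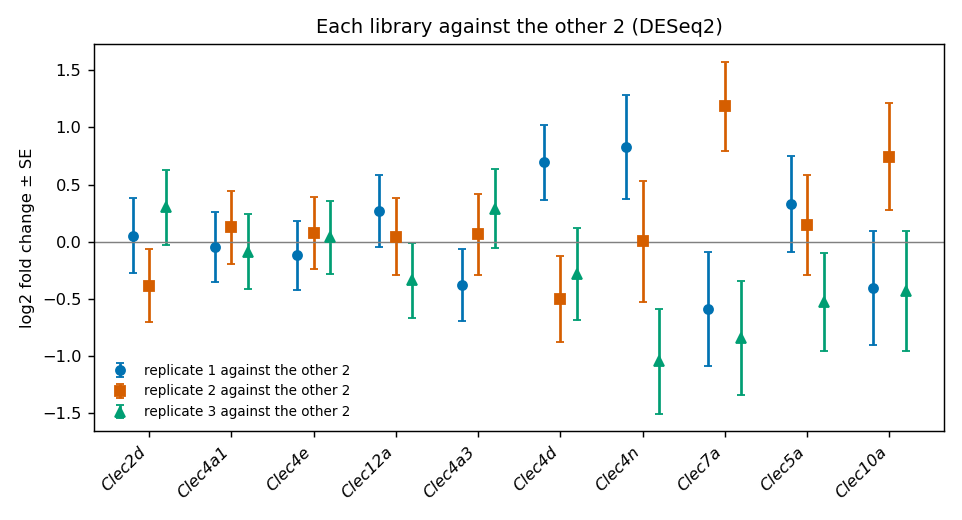
Log2 fold change ± SE of each receptor in 1 library against the other 2, from DESeq2, with genes ordered by mean TPM. Clec7a in replicate 2, at 1.18 ± 0.39, lies farthest above 0, and Clec4n in replicate 3 lies farthest below it.

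Of the receptors, 8 lie in 2 stretches of chromosome 6, and the genes beside them reached very unequal levels. The Clec4 stretch spans 368 kb from Clec4a1 to Clec4e and holds 9 protein-coding genes, 5 of them among the 10 receptors. In chromosome order the mean levels were 90.2 TPM for Clec4a1, 59.2 for Clec4a3, 0.673 for Clec4a4, 0.527 for Clec4b1, 18.5 for Clec4a2, 0.0567 for Clec4b2, 9.82 for Clec4n, 49.2 for Clec4d and 77.2 for Clec4e. The higher levels thus stood at both ends of the stretch, and 3 genes in between were below detection. Outside it, Necap1 on the Clec4a1 side had 24.2 TPM and Vmn2r19, a pheromone receptor gene on the Clec4e side, was listed at 0 in every library.

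The stretch from Clec2d to Clec7a spans 292 kb with 9 genes, 8 of them annotated as protein coding and Clec7a as a polymorphic pseudogene. Of the 9, 3 are among the receptors and 5 were detected. Cd69, an early activation marker that lies after Clec2d, was at 14.9 ± 1.54 TPM. Between Clec12a and Clec7a, Clec12b had 0.297 TPM, Clec1b 1.20, Clec9a 0.317 and Clec1a 0.133. The gene between Cd69 and Clec12a, 4922502D21Rik, had 0.0167 TPM. Flanking the stretch, Clec2e had 0.01 TPM and Olr1 0.0967 TPM. Clec5a, which stands alone, lies between the olfactory receptor gene Olfr460 at 0.03 TPM and the taste receptor gene Tas2r138, listed at 0 in every library. Clec10a lies between Mgl2 and Slc16a11, which had 0.740 TPM.

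**Figure D3:**
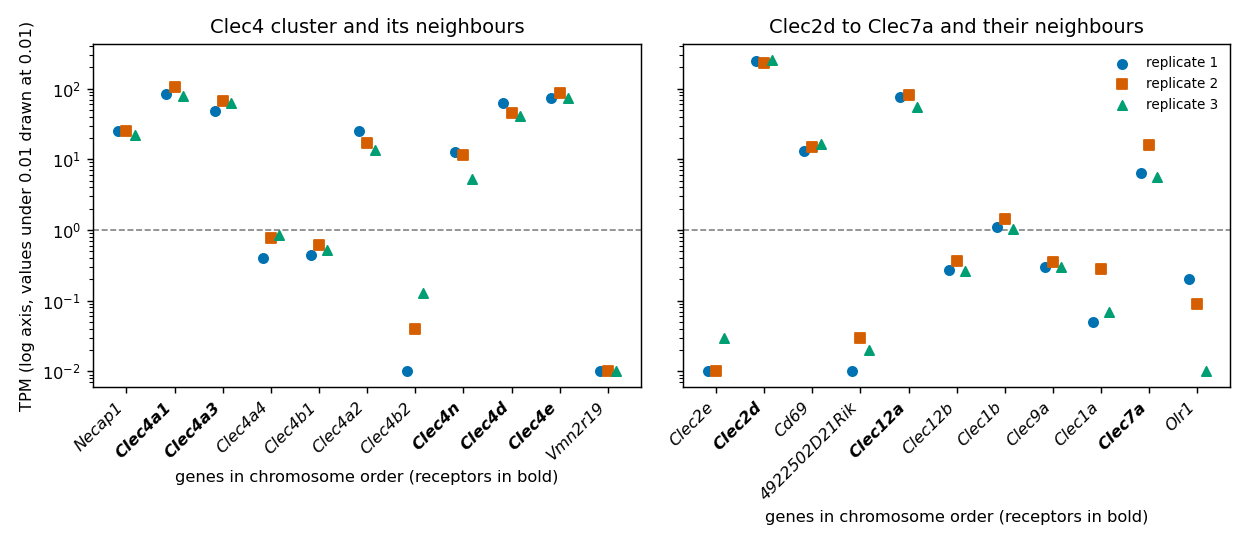
TPM (log axis) of the genes of both receptor stretches of chromosome 6 in chromosome order, with 1 flanking gene on each side, in each library; the 8 receptors of these stretches are in bold, the dashed line is 1 TPM and values under 0.01 are drawn at 0.01. Receptors above 40 TPM lie directly beside genes below 1 TPM in both stretches.

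Nuclear RNA holds transcripts that are not yet fully spliced, and the annotation divides isoforms into classes such as protein coding, retained intron and nonsense-mediated decay. Unspliced precursor RNA cannot be told apart here from an annotated retained-intron isoform. A gene with no such isoform in the annotation cannot show a share for it. Clec2d, Clec4a1 and Clec4a3 have only protein-coding isoforms, at 100%. Of the other 7 receptors, 5 have a retained-intron isoform.

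Clec4e had the highest retained-intron share of those 5. Its retained-intron isoforms took 45.6%, 51.5% and 56.3% of the gene's TPM in replicates 1, 2 and 3, or 51.1 ± 5.36% (SD, n = 3), and the coding isoforms 45.9 ± 5.35%. A lower share was found in 88.0% of the 5980 detected protein-coding genes that have such an isoform. The isoforms Clec4e-205 and Clec4e-206 hold intron 2 whole, 2375 bp at chr6:123286519-123288893. Of the TPM of the 4 isoforms that either hold or splice this intron, they made up 37.2%, 44.6% and 44.7%, or 42.1 ± 4.31%. Clec4e-203 and Clec4e-205 hold intron 3, only 72 bp at chr6:123286360-123286431, and on the same basis made up 20.9%, 32.7% and 25.8%, or 26.5 ± 5.93%. The shares of introns 2 and 3 count Clec4e-205 in both. No annotated isoform holds introns 1, 4 or 5.

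Both retained introns of Clec4e begin with GT and end with AG, and they hold 42.5% and 43.1% G and C. They are shown because isoforms that hold them make up much of the Clec4e RNA, with the intron in capitals and the exon in lower case, in the direction of transcription, from the GENCODE M21 transcripts (mm10, minus strand). For intron 2 only the ends are given, at chr6:123288876-123288905 and chr6:123286507-123286536. Intron 3 is given whole with 8 exon bases on each side, at chr6:123286352-123286439.
Clec4e intron 2, 5′ end: ccagatgtgtcgGTGGGTTCTGATGATCAG
Clec4e intron 2, 3′ end: TTCCCTTTCCTCTTACAGtaacatatcgca
Clec4e intron 3: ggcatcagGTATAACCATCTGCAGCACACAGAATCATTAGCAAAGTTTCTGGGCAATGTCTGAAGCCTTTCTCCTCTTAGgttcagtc

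Clec12a came next, with 27.3%, 37.6% and 32.7% of its TPM in retained-intron isoforms and replicate 2 the highest. Its coding isoforms took 67.5 ± 5.20%, of which all was Clec12a-201. In Clec4d, 16.6%, 24.6% and 20.2% of the TPM were in the retained-intron isoform and 58.2 ± 5.07% in the coding one. Clec10a had 11.0 ± 2.56% and Clec7a 10.9 ± 2.19% in retained-intron isoforms. Unlike for Clec4e, no annotated isoform holds a whole intron of the main isoforms Clec12a-201, Clec4d-201 or Clec7a-204. Whole introns were not examined for Clec10a. Over the 5 receptors the median share was 20.5 ± 4.0%, and over the 5980 genes 24.0 ± 0.44%. From the kallisto-format table the medians were 34.4 ± 6.90% and 28.4 ± 1.04%, so that the order of the receptors and the other genes turned.

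Several receptors had much of their RNA in isoforms that differ by skipped exons or shifted splice sites. Sequences across the junctions concerned are shown to make the difference visible, from the GENCODE M21 transcripts. Each holds 18 bases of the upstream exon in lower case and 18 bases of the downstream exon in capitals. All of these bases are coding in at least 1 annotated isoform.

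Clec7a-204, which carries exon 3 (135 bases, chr6:129468869-129469003), took 53.3%, 62.9% and 53.0% of the gene's TPM. The annotation puts this isoform, and the gene, in the class polymorphic pseudogene. Clec7a-202 skips exon 3, a multiple of 3 bases, and took 26.4%, 22.9% and 27.0%. The isoforms of Dectin-1 that differ by the stalk beneath the lectin domain are known for this kind of exon choice. Clec7a-201 joins exon 2 at a site 10 bases further on to exon 3 at a site 10 bases further in. It took 7.21 ± 4.59% of the RSEM-format TPM but 0.00107% of the kallisto-format TPM, so its share rests on the quantification. The exon 3 form was the highest in all 3 libraries, and in expected counts it held 78.1 ± 6.76%.
Clec7a-204, exons 2 and 3: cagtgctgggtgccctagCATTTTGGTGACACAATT
Clec7a-202, exon 2 and the exon after the skip: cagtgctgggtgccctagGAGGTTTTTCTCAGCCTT
Clec7a-201, shifted sites: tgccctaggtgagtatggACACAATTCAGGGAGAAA

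Clec4d-203, of the nonsense-mediated decay class, lacks the first 77 bases of exon 4 (chr6:123267992-123268068), which is not a multiple of 3. It took 19.4%, 20.8% and 23.8% of the Clec4d TPM, or 21.3 ± 2.27%, against 58.2 ± 5.07% for Clec4d-201, and was the lower in all 3 libraries. In the kallisto-format table its share was 25.2 ± 5.14%. The upstream exon is the same in both lines and the downstream bases differ.
Clec4d-201, exons 3 and 4: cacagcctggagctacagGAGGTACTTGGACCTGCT
Clec4d-203, exon 4 shortened: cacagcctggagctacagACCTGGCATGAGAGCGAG

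Most Clec5a RNA was in an isoform without a coding class. Clec5a-201, of the class processed transcript, took 64.6%, 81.4% and 63.9% of the TPM, or 70.0 ± 9.94%, with replicate 2 the highest. It lacks exon 3 (60 bases, chr6:40582235-40582294) and exon 4 (137 bases, chr6:40581800-40581936) of the coding Clec5a-202. Clec5a-202 itself took 13.5 ± 2.88% and Clec5a-203, also coding, 15.7 ± 8.96%. The expected counts of Clec5a-201 were 271, 229 and 140, and those of Clec5a-202 106, 84.6 and 82.6, so each share rests on few fragments.
Clec5a-202, exons 2 and 3: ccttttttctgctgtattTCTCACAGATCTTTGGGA
Clec5a-201, exons 3 and 4 skipped: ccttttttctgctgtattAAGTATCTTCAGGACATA

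By RSEM-format TPM, Clec4n had 2 abundant coding isoforms. Clec4n-201 took 65.7%, 51.9% and 63.1% of the TPM, and Clec4n-202, which skips exon 3 (102 bases, chr6:123232093-123232194), took 32.7%, 40.0% and 25.1%. The full form was the higher in every library. The kallisto-format shares were lower for both, at 37.0 ± 13.2% and 18.9 ± 3.58%. The coding isoform Clec4n-206 had 17.4 ± 9.86% of the kallisto-format TPM but 0% of the RSEM-format TPM. The nonsense-mediated decay isoform Clec4n-205 had 21.3 ± 9.21% of the kallisto-format TPM and 3.13 ± 2.56% of the RSEM-format TPM. In Clec10a the coding class took 86.5%, spread over several isoforms of which Clec10a-202 was the largest at 38.9 ± 7.36%.
Clec4n-201, exons 2 and 3: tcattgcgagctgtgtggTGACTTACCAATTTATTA
Clec4n-202, exon 3 skipped: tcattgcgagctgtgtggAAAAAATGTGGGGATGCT

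**Figure D4:**
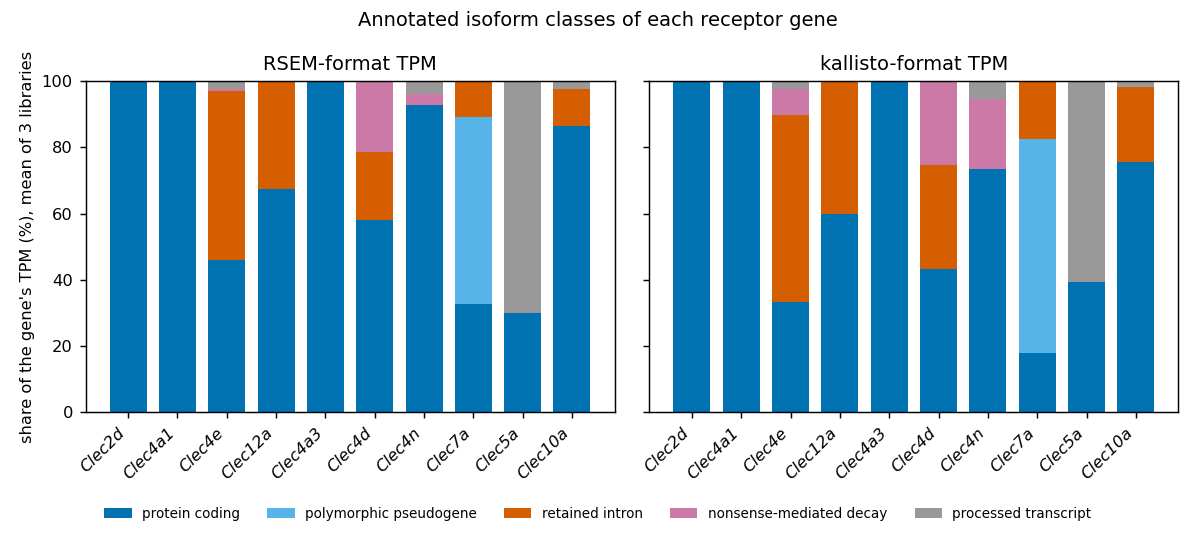
Share of each receptor's TPM in each annotated isoform class (%, mean of 3 libraries, stacked from 0), from the RSEM-format values on the left and the kallisto-format values on the right. Retained-intron isoforms make up 51.1% of Clec4e on the left and 56.4% on the right, and Clec5a is mostly processed transcript in both.

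The chains and enzymes through which these receptors signal were nearly all detected by RSEM-format TPM, at 31 of 32 genes. Of the protein-coding genes encoded in the nucleus, 42.8% were detected at that unit. By kallisto-format TPM, 26 of the 32 were detected. The median of the 32 was 4.53 ± 0.14 on the log2(TPM + 1) scale. The median over detected protein-coding genes was 3.25 ± 0.095. Fgr, a SRC-family kinase at 0.760 ± 0.0794 TPM, was the 1 gene below detection and is named after its value was seen. Among the 3 adaptors, Fcer1g encodes the FcRγ chain used by Mincle, MCL and Dectin-2. It had 477, 617 and 409 TPM (501 ± 106), with replicate 2 the highest, and lay above every receptor in every library. Tyrobp, which encodes DAP12, the partner of MDL-1, had 141, 130 and 125 TPM (132 ± 7.93). Hcst, which encodes DAP10, had 2.52, 2.26 and 2.84 TPM, far below the other adaptors.

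Of the 7 proximal kinases 6 were detected, and Syk was the highest of them. Syk, the kinase that binds phosphorylated ITAMs, had 102, 117 and 128 TPM (115 ± 12.8). All 5 genes of guanine exchange and lipid signalling were detected, led by Prkcd, the kinase that links SYK to CARD9, with 88.2, 106 and 123 TPM. Both kinases were highest in replicate 3 and lowest in replicate 1.

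The CARD9 complex, in which CARD9, BCL10 and MALT1 pass the SYK signal on to NF-kappaB, was detected in all 4 genes. Malt1 had 24.5, 42.5 and 37.9 TPM (35.0 ± 9.35). Card9 had 13.8, 15.5 and 23.2 TPM (17.5 ± 5.01), with replicate 3 the highest. Bcl10 was steady at 12.8, 11.7 and 11.9 TPM. Trim62, the ubiquitin ligase that acts on CARD9, was the lowest detected partner at 1.24 ± 0.226 TPM. On the inhibitory side 3 of 3 phosphatases were detected, and Ptpn6, which encodes SHP-1, had 84.3, 53.3 and 88.1 TPM with replicate 2 the lowest. All 6 calcineurin and NFAT genes were detected, between 8.83 and 25.4 TPM on average, led by Ppp3ca. Of the 4 membrane or lectin partners, Lgals3, which encodes galectin-3, was the highest with 133, 222 and 187 TPM (181 ± 44.8).

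**Figure D5:**
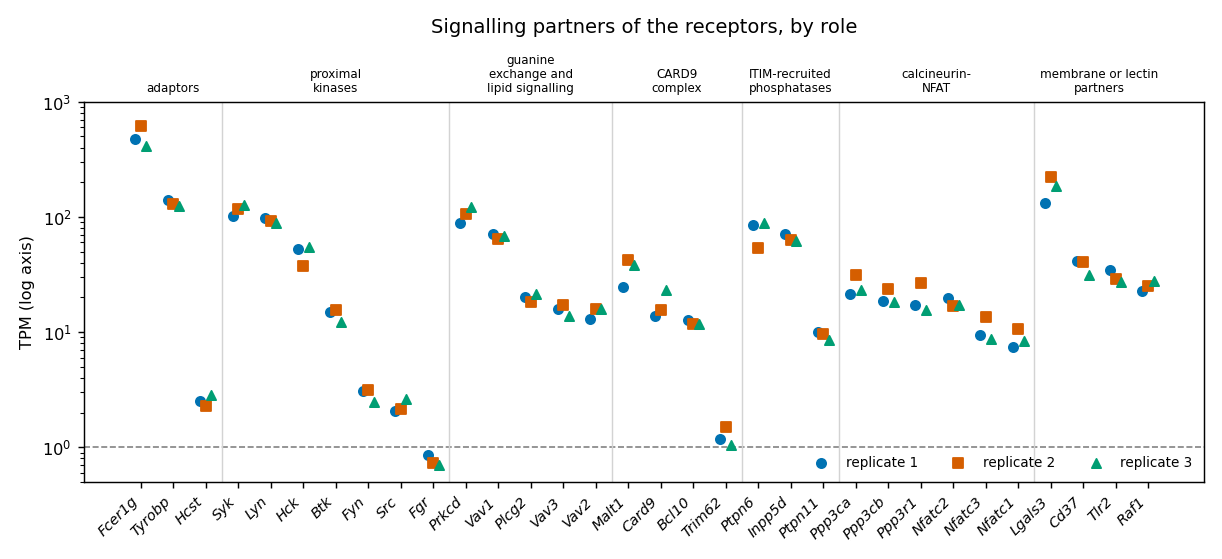
TPM (log axis) of the 32 signalling partner genes in each library, grouped by role, with the dashed line at 1 TPM. Fcer1g is the highest at 409 to 617 TPM, and Fgr is the 1 gene below the line.

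Other C-type lectin-like genes were mostly low in the same nuclei. Of 48 such genes, 10 (20.8%) were detected, and the median of the 48 was 0.084 ± 0.024 on the log2(TPM + 1) scale. Over all protein-coding genes encoded in the nucleus, detected or not, 42.8% were detected and the median was 0.44 ± 0.032. The highest were Cd72, an inhibitory receptor best known from B cells, with 107, 43.2 and 68.4 TPM, and Mrc1, the macrophage mannose receptor, with 53.8, 49.99 and 24.3 TPM. Cd72 was lowest in replicate 2 while Mrc1 was lowest in replicate 3. Clec4a2, Cd69, Cd302 and Clec2i followed at 18.5, 14.9, 7.39 and 2.74 TPM. The close paralogues Clec4a4, Clec4b1, Clec4b2 and Mgl2 were all below 1 TPM in every library.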

How the data were processed

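Total RNA of the nuclear fraction was sequenced after ribosomal RNA depletion, in 3 libraries of 1 group. Gene and transcript tables in RSEM format were deposited for mm10 and GENCODE M21, per the notes deposited beside them. A second transcript table is in kallisto format. No program name or version is given in the sources used here. For each library the authors deposited expected counts, which are estimated counts per gene or transcript without normalization. The deposited TPM has a fixed sum per library, and the deposited FPKM is per length and depth. TPM is relative to all rows of a library, so a level depends on the share of TPM that other genes take.

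Of 81881 gene rows, 55536 are annotated genes. The other 26345 rows held 0.827%, 0.275% and 0.0547% of the expected counts and were left out. Levels are log2(TPM + 1), and neighbours in the order were compared by an exact two-sided sign-flip test. Expected counts were rounded, genes of low count were removed by filterByExpr, and each library was set against the other 2 with the edgeR 4.0.16 quasi-likelihood test after TMM scaling, with DESeq2 1.42.0 as the alternative (R 4.3.3, Python 3.11.15). Both were run on simulated data with changes in replicate 1, and both missed most genes that were changed 2-fold. With 1 library on 1 side, the spread comes from the other 2. Isoform shares are percent of a gene's deposited transcript TPM. No source used here states whether strand was used in counting.

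Alternatives covered the pseudocount, the detection level, the scaling, the unit, the tool, the filter, the second quantification and each replicate left out. The receptors and lists were chosen with earlier results of these data known. Genes named are all receptors, the highest signalling partner of each role, every adaptor, every CARD9-complex gene, the lowest detected partner, the 6 highest other lectins, Clec4a2, Clec4a4, Clec4b1, Clec4b2, Mgl2 and Klrb1b, and the protein-coding genes beside a receptor. Others are named after their values were seen, including the remaining genes of the second chromosome 6 stretch. No protein sequence is used here.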

Additional observations from a re-analysis of the deposited data

How the results depend on the processing

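Kallisto-format TPM moved the most values. At that unit 6 receptors, 26 signalling partners and 4 other lectin-like genes were detected, against 10, 31 and 10. The median receptor level of 5.73 became 4.24, and it became 6.25 with FPKM, 7.97 with TPM rescaled over nuclear protein-coding genes, and 7.95 with kallisto-format TPM rescaled in the same way, an alternative chosen after seeing the data. Without 1 replicate the median was 5.69 to 5.80, and Clec7a moved from 9.25 to 6.005 TPM without replicate 2. The count of neighbours that kept their order, 4, ranged from 4 to 7 without 1 replicate, the 7 being without replicate 1. With a replicate left out the count could not fall, because fewer libraries had to share the order. With kallisto-format TPM the count was 3. Of 54 recomputed neighbour differences 52 kept their sign. Clec4a3 minus Clec4d turned to -0.088 with kallisto-format TPM, and Clec4n minus Clec7a ranged from -0.26 (without replicate 1) to 0.41 with 1 replicate left out. The receptors called in replicate 2 rose from 0 to 1 with no filter on low counts. The median coding share, 77.0%, was 63.5% from kallisto-format TPM and 84.4% from expected counts. The median retained-intron share, 20.5%, was 34.4% and 9.03%. The cause of these changes was not tested.

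Over all genes, edgeR called 29, 0 and 1 for replicates 1, 2 and 3. The counts were 2, 0 and 1 with DESeq2 size factors, 0, 349 and 161 with no filter, and 72, 11 and 34 with DESeq2. Leaving out a library from those tests would leave 1 against 1, with no residual degrees of freedom, so it was not run. No paired analysis was possible because the design holds 1 group. Low counts limit Clec10a, Clec5a, Clec4n and Clec7a, and isoform shares rest on a model of the reads.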

Other observations

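Sequence upstream of the receptor genes was searched for motifs of transcription factors of myeloid cells, in windows from 250 bases before to 50 bases after the annotated start (RefSeq, GRCm38.p6, both strands). Of the 10 receptors, 8 had a window. GAGGAA, the core of the PU.1 motif, was found in 6 of 8 windows and in 28.3% of 32851 windows of all genes. TTNNGNAA, a C/EBP motif, was found in 5 of 8 and in 40.7% of all. The interferon-response motif, GAAA followed by any 2 bases and GAAA, was found in 2 of 8 (3.44% of all), the NF-kappaB motif, GGGA and CC with any 4 bases between, in 1 of 8 (20.7%), the AP-1 motif TGANTCA in 1 of 8 (7.81%) and TATAAA in 3 of 8 (13.6%). A match is a description of the letters in the window, and no binding was measured here.

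The windows of the neighbours Clec4e and Clec4d are given as the 250 bases before the start, 5′ to 3′ in the direction of transcription, with matches in capitals. Clec4e is at chr6:123289872-123290121 on the minus strand, with GAGGAA matches at -123 and -56, TTNNGNAA at -219 and -66, and TATAAA at -29 from the start. Clec4d is at chr6:123261857-123262106 on the plus strand, with GAGGAA at -240 and TTNNGNAA at -62, -39 and -8. Further Clec4d matches lie after the start and are not printed.
Clec4d: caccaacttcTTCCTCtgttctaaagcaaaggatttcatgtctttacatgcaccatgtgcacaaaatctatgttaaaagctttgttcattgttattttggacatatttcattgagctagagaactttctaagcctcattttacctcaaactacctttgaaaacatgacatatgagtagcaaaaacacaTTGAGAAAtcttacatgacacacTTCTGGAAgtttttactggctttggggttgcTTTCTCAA
Clec4e: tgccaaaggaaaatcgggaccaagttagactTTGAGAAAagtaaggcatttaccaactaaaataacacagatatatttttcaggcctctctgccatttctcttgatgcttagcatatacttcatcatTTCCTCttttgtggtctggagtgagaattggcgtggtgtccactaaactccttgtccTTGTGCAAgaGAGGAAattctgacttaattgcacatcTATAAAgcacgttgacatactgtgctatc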
